A study of Mus musculus with 30 samples.

Results

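Stool bacteria of female Gpr15l-/- (KO) and wild-type (WT) mice were compared at the end of a co-housing experiment, when the genotypes had been kept apart again for 6 weeks. The 10 libraries of that time were taken by their labels, KO libraries 21 to 25 and WT libraries 26 to 30, with 5 in each group and 30 in the whole experiment. The deposited table counts reads of sequence variants, which are distinct versions of the amplified 16S rRNA gene segment that stand for a bacterial strain, a species or one gene copy of a genome. Every row with reads in these libraries was used except 2 rows named as mitochondria, which left 466 of the 949 bacterial variants of the experiment, in 89 genera, 42 families and 10 phyla.

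KO mice carried the Gpr15l-/- genotype, and how the allele was made is not given in the labels. Mice of both genotypes were weaned at about 4 weeks of age, shared mixed cages of 2 to 7 mice for 4 to 5 weeks, and then lived apart by genotype for 6 weeks, which puts the samples at about 14 to 15 weeks of age. Stool of both genotypes was also taken at the start and at the end of co-housing. Cage, litter and identity of the mouse are not among the labels, so cage and genotype cannot be told apart after re-separation, and each p-value speaks only of the spread among these libraries.

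Gpr15l encodes a small secreted peptide of gut and skin epithelium that is the ligand of GPR15, a receptor that guides lymphocytes to the large intestine. Mouse stool is dominated by Bacteroidales, which break down plant and host glycans, and by Clostridia, which are strict anaerobes that ferment fibre to short-chain fatty acids and form spores in many species. Mice eat faeces, so cage mates exchange bacteria, and mice housed apart can keep or lose strains separately.

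Libraries held 53078 to 63628 reads in KO mice and 39735 to 73776 reads in WT mice. A genus name was given for 92.6% to 98.2% of a library's bacterial reads. Mitochondrial reads numbered 11 to 110 per KO library and 18 to 195 per WT library. Chloroplasts, rows with no kingdom, the skin genera Staphylococcus, Cutibacterium and Corynebacterium, and the reagent genera Ralstonia, Pseudomonas, Bradyrhizobium, Sphingomonas, Acinetobacter, Stenotrophomonas and Delftia had 0 reads. Outside that list, Achromobacter had 2 reads in KO library 22 and Hydrotalea 2 reads in WT library 27; both are also known from reagents. Shares below are percentages of a library's bacterial reads, and means are given ± SD over 5 libraries. Reads were amplified without molecular identifiers and are not independent molecules, so a floor of 3 reads covers counting error only.

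The 10 families with the highest mean share had reads in every library of both genotypes and summed to 91.0% of reads on average. Muribaculaceae, glycan-degrading Bacteroidales typical of the mouse gut, held the highest share in KO libraries 21, 22, 23 and 25 and in WT library 26. They took 45.1%, 36.7%, 24.9%, 21.6% and 20.8% of reads in KO libraries 21 to 25, against 28.7%, 22.2%, 13.4%, 13.5% and 18.2% in WT libraries 26 to 30. The highest shares were in KO libraries 21 and 22 and the lowest in WT libraries 28 and 29, and the groups overlapped, with a log2 fold change of KO over WT of 0.77 ± 0.45 (SE; edgeR's quasi-likelihood test, adjusted p = 0.419).

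Prevotellaceae, another Bacteroidales family, averaged 18.0 ± 3.67% in KO mice and 23.2 ± 7.72% in WT mice. Helicobacteraceae, spiral bacteria that live in the mucus and crypts, had 6.91%, 10.1%, 10.4%, 22.1% and 11.4% of reads in KO libraries 21 to 25, against 9.48%, 7.10%, 8.30%, 10.6% and 6.82% in WT libraries 26 to 30. KO library 24 held the highest share, and the family's log2 fold change was 0.72 ± 0.36 (adjusted p = 0.369). Mycoplasmataceae, bacteria without a cell wall, averaged 10.9 ± 7.38% in KO mice and 9.41 ± 4.42% in WT mice. Lachnospiraceae, a large family of fibre-fermenting Clostridia, averaged 7.23 ± 4.92% in KO mice and 10.6 ± 5.31% in WT mice. Rikenellaceae averaged 5.10 ± 1.43% in KO mice and 6.88 ± 1.97% in WT mice, Bacteroidaceae 3.52 ± 0.894% in KO mice and 3.33 ± 1.26% in WT mice, and Marinifilaceae 2.15 ± 0.975% in KO mice and 2.77 ± 1.03% in WT mice. Each of these families overlapped between the genotypes and missed the threshold.

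**Figure D1:**
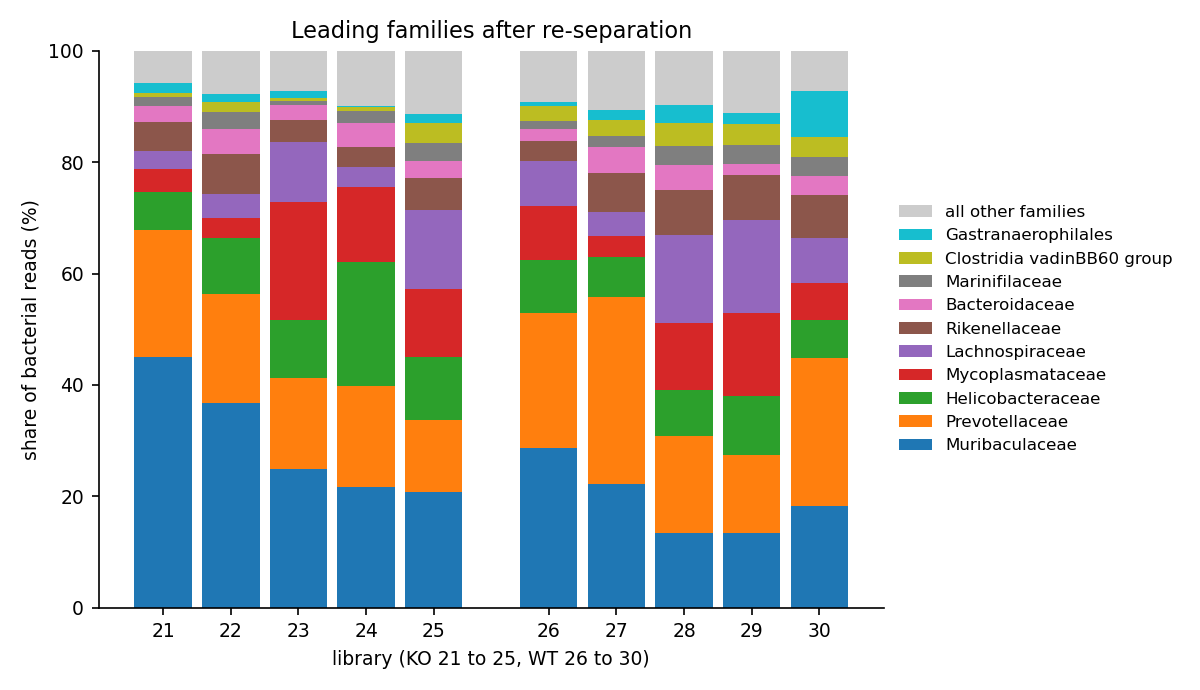
Share of bacterial reads (%) of the 10 leading families and of all others, stacked for each library, with KO libraries 21 to 25 left of WT libraries 26 to 30. All 10 families appear in every bar, and Muribaculaceae range from 20.8% to 45.1% in KO bars and from 13.4% to 28.7% in WT bars.

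Clostridia vadinBB60 group, a lineage of Clostridia known mainly from sequences, had 0.720%, 1.81%, 0.420%, 0.660% and 3.56% of reads in KO libraries, against 2.81%, 2.75%, 4.11%, 3.73% and 3.53% in WT libraries. All KO libraries but library 25 lay below all WT libraries, and the log2 fold change of the family was -1.15 ± 0.51 (adjusted p = 0.347). Gastranaerophilales, non-photosynthetic relatives of cyanobacteria found in guts, averaged 1.30 ± 0.682% in KO mice and 3.15 ± 2.97% in WT mice, where library 30 alone held 8.21%.

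At the threshold, an adjusted p under 0.05 after Benjamini-Hochberg adjustment over all features tested, 0 of 29 families differed between the genotypes (0% called), while 4 had an unadjusted p under 0.05 (13.8%), DESeq2 called 1 and limma-voom called 0. That family, named here after its values were seen, was Erysipelotrichaceae, Firmicutes that respond strongly to diet in mice. Its shares were 0.0668%, 0.149%, 0.166%, 0.153% and 0.0485% in KO libraries, against 0.0149%, 0.0327%, 0.0425%, 0.0120% and 0.0428% in WT libraries. Every KO library lay above every WT library, which held for 1 of the 29 families (3.45%). The log2 fold change was 2.19 ± 0.68 with an adjusted p of 0.138 in edgeR's test and of 0.00892 in DESeq2. In simulated counts for these families, the edgeR test found 50.8% of 4-fold changes and 99.2% of 16-fold changes.

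Among genera, 0 of 65 tested passed the threshold (0% called), 12 had an unadjusted p under 0.05 (18.5%), DESeq2 called 6 and limma-voom called 2. The 15 leading genera summed to 89.4% of reads. The unnamed genus of Muribaculaceae averaged 28.7 ± 10.4% in KO mice and 18.7 ± 6.23% in WT mice (log2 fold change 0.91 ± 0.48, adjusted p = 0.296). Prevotellaceae UCG-001 averaged 16.7 ± 2.81% in KO mice and 21.4 ± 6.26% in WT mice, and Mycoplasma, which lives on host surfaces, averaged 9.84 ± 7.53% in KO mice and 8.79 ± 4.51% in WT mice. Mycoplasma ranged widely within each genotype, with 2.73% in KO library 22 and 20.8% in KO library 23, against 2.65% in WT library 27 and 14.5% in WT library 29.

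The other leading genera overlapped as well. Lachnospiraceae NK4A136 group, fibre-fermenting Clostridia that are common in mice, averaged 4.20 ± 2.98% in KO mice and 6.86 ± 4.33% in WT mice. Alistipes, bile-tolerant Bacteroidales, averaged 2.94 ± 0.687% in KO mice and 5.08 ± 1.83% in WT mice. Parasutterella, an asaccharolytic member of the Proteobacteria, averaged 2.23 ± 1.6% in KO mice and 1.65 ± 1.14% in WT mice. Mucispirillum, a spiral bacterium of the mucus layer, averaged 1.20 ± 0.917% in KO mice and 1.04 ± 0.839% in WT mice. Alloprevotella, Rikenellaceae RC9 gut group, Parabacteroides, Odoribacter and Bacteroides likewise overlapped, with log2 fold changes between -0.28 and 0.32. In simulated counts for these genera, the test found 32.3% of 4-fold changes and 95% of 16-fold changes, so changes near 4-fold were mostly not detectable with 5 libraries a group.

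Of the genera nearest the threshold, UBA1819 separated the genotypes; it is a Ruminococcaceae genus known mainly from sequences. It had 0 reads in all 5 KO libraries and 0.0190%, 0.0261%, 0.00886%, 0.0360% and 0.00756% of reads in WT libraries 26 to 30. These were 14, 12, 5, 21 and 3 reads, so the separation rests on few reads. In library 28 they came from row 545, and in the other WT libraries from row 544. UBA1819 was the 1 genus of 65 without overlap (1.54%), at least 3.86-fold lower in KO mice against a floor of 3 reads per library (adjusted p = 0.0578). Uncultured Puniceicoccaceae, Verrucomicrobiota, had 0.113%, 0.0452%, 0.201%, 0.0629% and 0.265% in KO libraries, against 0.00544%, 0%, 0.00354%, 0.0600% and 0% in WT libraries. WT library 29 alone reached into the KO range (log2 fold change 3.66 ± 0.97, adjusted p = 0.0578). Unclassified Puniceicoccaceae went the other way, with 0.0271 ± 0.0199% in KO mice and 0.0663 ± 0.0617% in WT mice (log2 fold change -1.05 ± 0.77). The family as a whole overlapped between the genotypes (log2 fold change 1.25 ± 0.66, adjusted p = 0.372). UBA1819 and uncultured Puniceicoccaceae were singled out after their values were seen.

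The genera gave 4 calls without KO library 24, 6 without KO library 25 and 1 without WT library 29. UBA1819 and Anaerotruncus, a Clostridia genus that forms butyrate, were among the calls without library 24 and without library 25. Anaerotruncus had 0.0572%, 0.0810%, 0.422%, 0.105% and 0.123% of reads in KO libraries, against 0.0707%, 0.0174%, 0.0284%, 0.0685% and 0.0201% in WT libraries. KO library 21 lay below 2 WT libraries, and the log2 fold change over all 10 libraries was 2.08 ± 0.66 (adjusted p = 0.117).

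At the level of variants both genotypes shared most of the community. Of the 466 variants, 95 had reads in all 10 libraries and made up 76.7% to 91.5% of reads in KO mice and 73.5% to 84.6% in WT mice. Counted by genotype, 321 variants had reads in both genotypes, 75 with reads in KO mice only and 70 with reads in WT mice only. The KO-only variants held 0.535% to 2.15% of reads per KO library, and the WT-only variants held 1.19% to 3.51% per WT library. Of the KO-only variants 55 came from 1 library, as did 41 of the WT-only variants. Present in at least 3 libraries of 1 genotype and in 0 of the other were 9 variants in KO mice and 10 in WT mice.

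**Figure D2:**
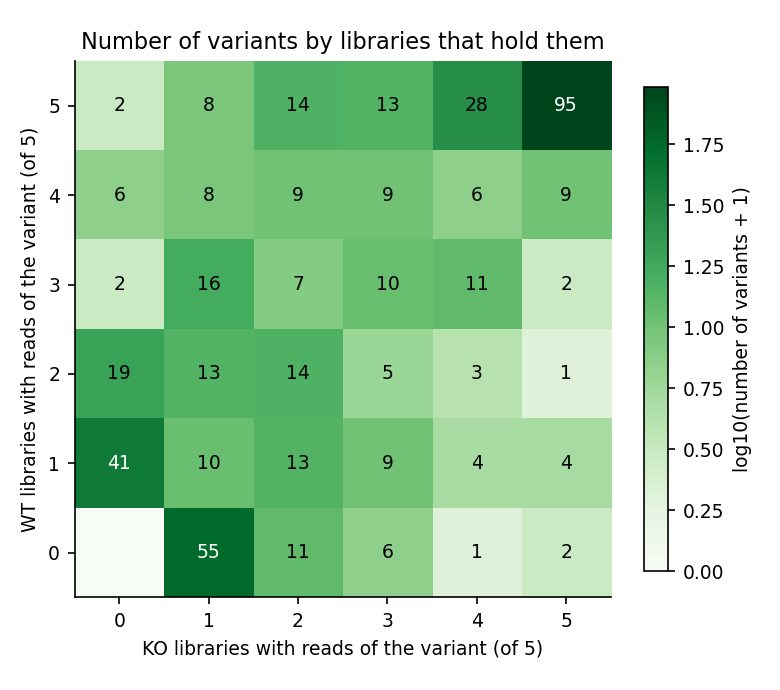
Number of variants by how many of the 5 KO libraries (horizontal axis) and of the 5 WT libraries (vertical axis) held reads of them; the printed count belongs to each cell and the shading is log10 of that count plus 1. The fullest cell is the 95 variants in all 10 libraries, and the corners for 5 libraries of 1 genotype and 0 of the other hold 2 variants each.

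A filter of at least 10 reads in at least 3 libraries left 278 of the 466 variants for testing. Of these, 4 passed the threshold (1.44% called), 2 higher and 2 lower in KO mice (0.719% each way), and 29 had an unadjusted p under 0.05 (10.4%). The 4 were the variants with reads in 5 of 5 libraries of 1 genotype and 0 of 5 of the other, the widest separation in presence that the design can give. The groups did not overlap for 12 variants (4.32%), 7 higher (2.52%) and 5 lower (1.8%) in KO mice. In simulated counts for these variants the test found 57.8% of those made absent from 1 genotype, 42.1% of 16-fold changes and 0.583% of 4-fold changes, so smaller differences between variants were mostly not detectable. Each simulated setting changed 1200 variants and left 4360 unchanged, a larger share than was called here, so these rates may be too high for these data. DESeq2 called 18 variants and limma-voom 22, the same 4 among them in each. Without KO library 25 the edgeR test called 16 variants, 5 higher and 11 lower in KO mice, again with the 4 among them, and it called 2 without WT library 27, 28 or 30.

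Both called variants that were lower in KO than in WT mice belong to the Lachnospiraceae NK4A136 group. The variant in row 1177 of the table had 0 reads in all KO libraries and 0.723%, 0.375%, 2.10%, 0.629% and 1.28% of reads in WT libraries 26 to 30. Every WT library stood clear of every KO library, with library 28 highest, and the share averaged 1.02 ± 0.689% in WT mice. It was at least 202-fold lower in KO mice, or at least 149-fold without WT library 28 (adjusted p = 0.00119). In the WT libraries it made up 6.54% to 24.9% of the genus.

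The variant in row 1241 had 0 reads in KO libraries and 0.0408%, 0.0349%, 0.0479%, 0.117% and 0.0579% of reads in WT libraries. All WT libraries held it, with library 29 highest, and it was at least 11.8-fold lower in KO mice (adjusted p = 0.0283). Without library 29 the bound was 8.97-fold, and the call was lost when any 1 of the 5 WT libraries was left out. Of the 28 tested variants of the genus, 9 had a log2 fold change above 0 and 19 below 0, with a median of -0.76, against -0.35 over all 278. Row 1173, chosen after its values were seen, made up 37.1% of the genus in KO library 23, at most 3.53% in the other KO libraries and at most 0.588% in WT libraries.

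The called variants that were higher in KO than in WT mice came from ASF356 and Dubosiella. ASF356 is a Clostridia lineage named for a member of the altered Schaedler flora, a defined set of mouse gut bacteria. Its variant in row 1061 had 0.0827%, 0.0547%, 0.115%, 0.0928% and 0.199% of reads in KO libraries 21 to 25, against 0 reads in all WT libraries. It was at least 19.0-fold higher in KO mice, or 15.1-fold without library 25 (adjusted p = 0.0105). A second ASF356 variant, row 1062, had 0, 82, 0, 36 and 92 reads in KO libraries, against 202, 35, 75, 92 and 28 reads in WT libraries.

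ASF356 reads in KO libraries 21 and 23 thus came entirely from row 1061, those in libraries 22, 24 and 25 from both rows, and those of all WT libraries from row 1062. The genus as a whole averaged 0.181 ± 0.104% in KO mice and 0.142 ± 0.0826% in WT mice, with overlapping groups (log2 fold change 0.42 ± 0.52, adjusted p = 0.603).

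Dubosiella is a genus of Erysipelotrichaceae that includes Dubosiella newyorkensis, isolated from the mouse gut. Its variant in row 1693 had 11, 31, 25, 89 and 22 reads in KO libraries, or 0.0175%, 0.0584%, 0.0442%, 0.140% and 0.0355%, against 0 reads in all WT libraries. It was at least 10.3-fold higher in KO mice, or 6.79-fold without library 24 (adjusted p = 0.0401), and its call was lost without any 1 of libraries 21 to 24 and 26 to 30. Row 1685, labelled Dubosiella newyorkensis, showed the reverse, with 0 reads in KO libraries against 6, 7, 21, 0 and 8 reads in WT libraries, too few to be tested.

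In KO libraries all reads of the genus came from row 1693, and in WT libraries none did. The genus had 0.0591 ± 0.0476% of reads in KO mice and 0.0185 ± 0.0127% in WT mice (log2 fold change 2.01 ± 0.84, adjusted p = 0.178).

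**Figure D3:**
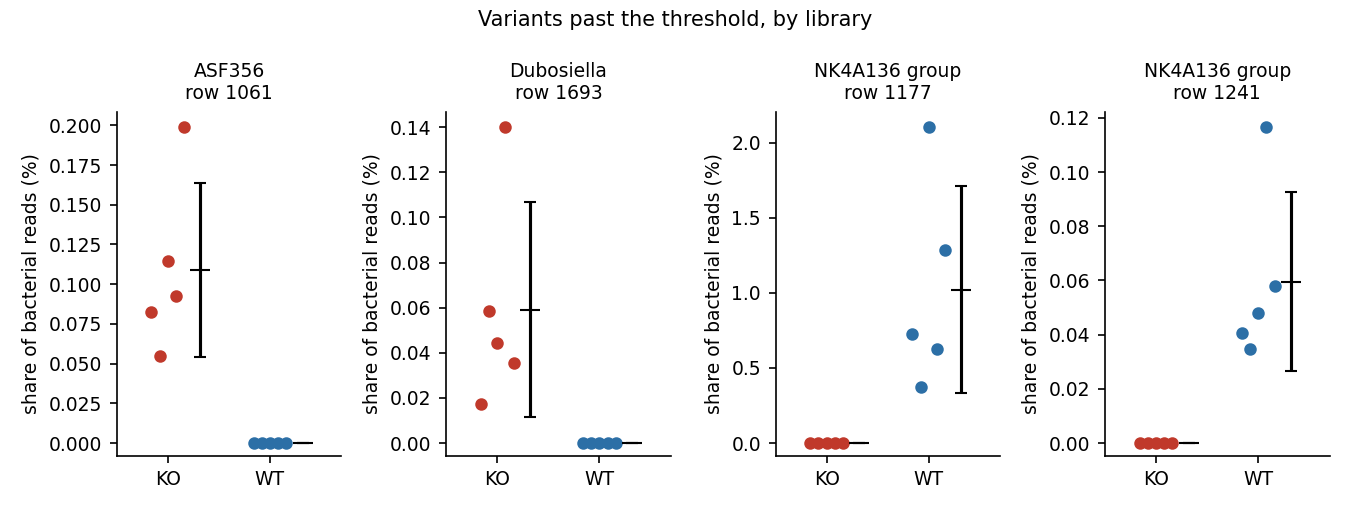
Share of bacterial reads (%) per library of the 4 variants past the threshold, each panel with its own axis, KO libraries left of WT libraries; points are libraries and the bar beside them is the mean ± SD (n = 5). ASF356 row 1061 and Dubosiella row 1693 have points above 0 in KO mice only, and both NK4A136 group variants in WT mice only.

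Mucispirillum divided in a similar way without passing the threshold, and it was picked out after its values were seen. Row 825 had 218, 220, 700, 891 and 1600 reads in KO libraries, against 424, 0, 1021, 0 and 0 reads in WT libraries. Row 826 had 0 reads in all KO libraries, against 0, 74, 0, 1185 and 221 reads in WT libraries. Each of the 10 libraries held one of these variants and 0 reads of the other. The log2 fold changes did not pass (adjusted p = 0.754 for row 825 and 0.149 for row 826), and the genus itself overlapped between the genotypes.

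The leading variants overlapped between the genotypes. Of the 10 with the highest mean share 0 were called, with adjusted p from 0.562 to 0.832, against 4 of all 278 called (1.44%). Together the 10 held 49.7% of reads on average. The Prevotellaceae UCG-001 variant in row 615 was the most abundant, with 19.6%, 16.7%, 15.8%, 17.0% and 11.6% in KO libraries, against 22.8%, 27.0%, 16.3%, 13.0% and 24.1% in WT libraries (log2 fold change -0.31 ± 0.33). Mycoplasma row 580 averaged 9.84 ± 7.53% in KO mice and 8.79 ± 4.51% in WT mice, and Helicobacter row 836 averaged 10.3 ± 5.59% in KO mice and 7.24 ± 1.32% in WT mice.

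Muribaculaceae held 62 variants, of which 54 were tested and 0 called, against 4 of all 278 called (1.44%). Of the 54, 40 had a log2 fold change above 0 and 14 below 0, and the median was 0.70, against 116 above 0 (41.7%) and a median of -0.35 for all 278 variants. The median was 0.88 with DESeq2's size factors, 0.67 with library size alone, and between 0.50 and 0.90 when each library was left out in turn. Reads of a library sum to a whole, so a higher share of the leading family lowers the others, and shares say nothing of cell numbers.

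Members of Muribaculaceae differed among themselves. Rows 737 and 738 were above every WT library in every KO library, and both were chosen after their values were seen. Row 737 had 1.99%, 0.927%, 1.54%, 0.626% and 0.667% in KO libraries, against 0.493%, 0.309%, 0.310%, 0.255% and 0.423% in WT libraries (log2 fold change 1.73 ± 0.49, adjusted p = 0.149). Row 738 had 2.15%, 0.820%, 1.51%, 0.758% and 0.832% in KO libraries, against 0.552%, 0.366%, 0.294%, 0.248% and 0.504% in WT libraries. Reads of row 737 over those of row 738 gave a ratio between 0.802 and 1.13 in every library, so these rows moved together. Row 686 ran the other way, with 0 reads in KO libraries, against 0.194%, 0.115%, 0.0798%, 0% and 0.111% in WT libraries (adjusted p = 0.0976).

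Several families of Clostridia had a smaller share of tested variants above 0 than the 41.7% of all variants, a description without a test. Of 38 tested Oscillospiraceae variants, 8 (21.1%) had a log2 fold change above 0 and 30 below 0, with a median of -0.89 that lay between -1.21 and -0.67 when single libraries were left out. Clostridia vadinBB60 group had 4 of 20 above 0 (20%) and a median of -1.27. Ruminococcaceae had 4 of 13 (30.8%) and a median of -0.80, which was -0.32 without WT library 29 and -1.38 without KO library 23. Lachnospiraceae, with 146 variants in all, had 28 of 75 above 0 (37.3%), close to the share of all variants, and a median of -0.58, which was -0.15 without WT library 29. Butyricicoccaceae had 1 above and 1 below 0. No sign of these family medians changed with DESeq2's size factors or library size alone. For Rikenellaceae, 7 of 17 were above 0 with a median of -0.30, and that sign changed without WT library 27, to 0.10.

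Grouped by role, 0 of 21 tested variants of butyrate-forming Clostridia passed the threshold, against 4 of all 278 (1.44%), with 9 above 0 (42.9%, against 41.7% of all variants) and a median of -0.44. The group took 0.780 ± 0.514% of reads in KO mice and 1.17 ± 0.512% in WT mice. Bacteria known from mucus or epithelium (Helicobacter, Mucispirillum and others) had 0 of 8 called and took 13.4 ± 6.18% in KO mice and 9.52 ± 2.23% in WT mice. Lactic acid bacteria, here Lactobacillus alone with no Bifidobacterium row, had 0 of 2 called and took 0.166 ± 0.142% in KO mice and 0.0856 ± 0.0224% in WT mice. The Mollicutes Mycoplasma, Ureaplasma and RF39 had 0 of 3 called and took 11.0 ± 7.31% in KO mice and 9.47 ± 4.41% in WT mice. Proteobacteria with Desulfobacterota had 0 of 8 called and took 3.26 ± 1.34% in KO mice and 2.91 ± 1.19% in WT mice.

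Whole communities were compared by Bray-Curtis distance, which runs from 0 for equal to 1 for disjoint shares of variants. The mean distance was 0.371 between KO libraries and 0.321 between WT libraries, and 0.375 between genotypes. Genotype took 19.4% of the variation (exact permutation test over all splits into 5 and 5, p = 0.0714, or 0.286 adjusted over 4 tests of community measures), where the mean over all splits is 11.1%. KO library 25 was nearer to the WT libraries, at 0.319 on average, than to the other KO libraries, at 0.377. WT library 26 was nearer to the KO libraries, at 0.307, than to the other WT libraries, at 0.314. Without library 25 genotype took 25.0% (exact permutation p = 0.0317, mean over all splits 12.5%). When single libraries were left out, the unadjusted p fell under 0.05 without library 25 only. Leaving out any other library gave p from 0.0635 to 0.143 by the same exact permutation test.

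**Figure D4:**
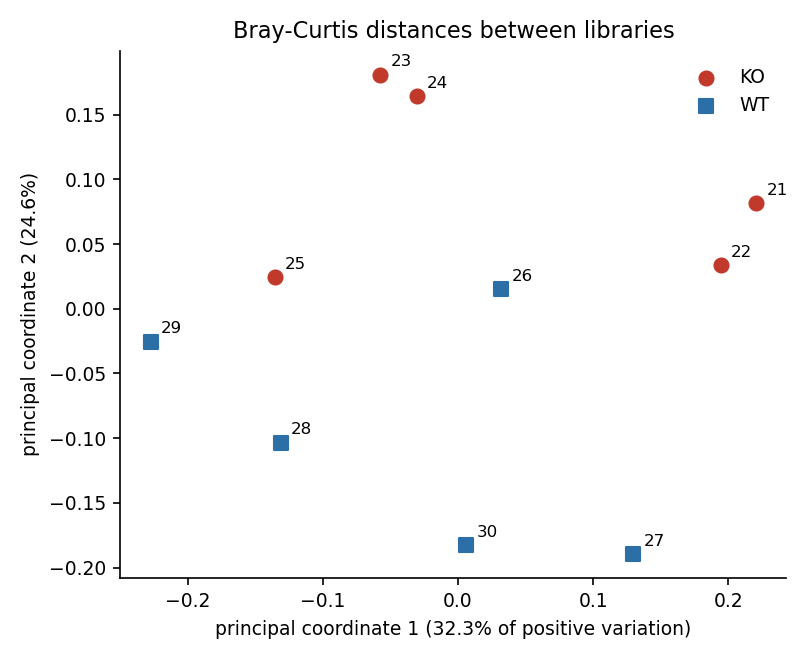
Principal coordinates of Bray-Curtis distances between libraries, KO as circles and WT as squares, with library numbers; axes are in distance units and carry 32.3% and 24.6% of the positive variation. KO libraries lie higher on the second axis than WT libraries, with KO library 25 and WT library 26 close to each other's level.

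Measures that give rare variants more weight separated the genotypes further. Genotype took 24.5% with the Jaccard distance, which uses presence alone at equal depth, and 24.5% with the Aitchison distance, which uses log ratios. Both gave an unadjusted exact permutation p of 0.00794, the smallest that this design allows. With square roots of shares it took 26.6% (exact permutation p = 0.0159), while genera gave 18.0% (exact permutation p = 0.143) and families 17.2% (exact permutation p = 0.183).

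Diversity was compared at a depth of 39703 reads. KO libraries held 235 ± 33.4 expected variants and WT libraries 264 ± 31.3 (exact permutation p = 0.175, or 0.349 adjusted over 4 tests). Library 25 had 293 variants and the other KO libraries 205 to 228, while WT libraries ran from 228 to 312. Without library 25 the difference of means was -43.3 variants (unadjusted exact permutation p = 0.0159). The Shannon index, which weighs richness and evenness, was 3.77 ± 0.339 in KO mice and 3.86 ± 0.134 in WT mice (exact permutation p = 0.595), and the inverse Simpson index, led by abundant variants, was 17.5 ± 6.24 in KO mice and 15.3 ± 3.66 in WT mice (exact permutation p = 0.492).

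The genotype difference after re-separation was set against that at weaning in one fit over all 30 libraries and 76 genera. No variant row had reads in both the re-separation libraries and the earlier ones, so only genera could be followed, and for a level the time and the set of libraries cannot be told apart. In that fit KO and WT differed at weaning in 18 genera (23.7%). They differed in 1 genus after co-housing (1.32%) and in 0 genera after re-separation (0%). All 18 had reads after re-separation, where 10 had the same sign as at weaning and 8 the other. Several of the 18 had 0 reads in 1 genotype at weaning, so no typical size of their differences is given.

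The difference itself differed between re-separation and weaning for 14 of 76 genera (18.4% called), with the log2 ratio of KO over WT higher after re-separation for 10 (13.2%) and lower for 4 (5.26%). With library size alone as scaling, which lowers the median of all genera by 1.17 on the log2 scale, the calls were 6 higher and 6 lower. Rikenellaceae RC9 gut group, Bacteroidales of the gut, averaged 0.0349 ± 0.0353% in KO mice and 1.00 ± 0.484% in WT mice at weaning, 0.176 ± 0.186% in KO mice and 0.440 ± 0.296% in WT mice after co-housing, and 1.35 ± 0.797% in KO mice and 1.19 ± 0.673% in WT mice after re-separation. The change in the log2 ratio was 5.86 ± 1.36 (adjusted p = 0.00368).

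Several Firmicutes genera with 0 reads in KO stool at weaning had reads in all 5 KO libraries after re-separation. Some KO libraries already held them after co-housing. These were 4 libraries each for NK4A214 group and Tuzzerella, 3 each for Clostridia UCG-014 and uncultured Erysipelotrichaceae, and 1 for RF39. Mean depth in KO mice was 23189 reads at weaning and 59667 after re-separation, and the part of depth in these detections was not tested. WT mice at weaning had reads of RF39 and NK4A214 group in 3 libraries each, of Tuzzerella in 2 and of Clostridia UCG-014 and uncultured Erysipelotrichaceae in 4 each. RF39 had 0 reads in KO mice and 0.112 ± 0.136% in WT mice at weaning, against 0.0805 ± 0.130% in KO mice and 0.0589 ± 0.0304% in WT mice after re-separation (adjusted p = 0.00383 for the change). It had 10, 164, 2, 43 and 4 reads in KO libraries 21 to 25, so its presence in libraries 23 and 25 rests on few reads. Clostridia UCG-014, with 0 reads in KO mice at weaning and 0.150 ± 0.157% in WT mice, averaged 0.0821 ± 0.0178% in KO mice and 0.250 ± 0.138% in WT mice after re-separation (adjusted p = 0.00808). NK4A214 group, Tuzzerella and uncultured Erysipelotrichaceae had 0 reads in KO mice at weaning, with adjusted p of 0.0152, 0.0433 and 0.00376 for the change. After re-separation uncultured Erysipelotrichaceae averaged 0.0565 ± 0.0494% in KO mice and 0.0105 ± 0.00711% in WT mice. NK4A214 group averaged 0.0727 ± 0.0575% in KO mice and 0.0859 ± 0.0205% in WT mice. Tuzzerella averaged 0.0481 ± 0.0497% in KO mice and 0.0732 ± 0.0276% in WT mice, and its call was lost in 17 of 24 alternatives. The fitted size of a change that starts from 0 reads depends on the model's prior count, so none is given here.

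Candidatus Stoquefichus had reads in 1 library at weaning, a WT one, and in 3 KO and 0 WT libraries after re-separation, with an average of 0.0208 ± 0.0372% in KO mice (adjusted p = 0.0196). Its call was lost without WT library 8 of the weaning set (adjusted p = 0.9998), the library that held its reads at weaning. Odoribacter, Ureaplasma and Lactobacillus were lower in KO than in WT mice on average at weaning. Odoribacter, which can form butyrate, averaged 0.236 ± 0.139% in KO mice and 1.25 ± 1.05% in WT mice at weaning, against 2.15 ± 0.975% in KO mice and 2.77 ± 1.03% in WT mice after re-separation (change 3.23 ± 1.11, adjusted p = 0.0398). Lactobacillus averaged 0.239 ± 0.129% in KO mice and 0.702 ± 0.646% in WT mice at weaning, against 0.166 ± 0.142% in KO mice and 0.0856 ± 0.0224% in WT mice after re-separation (change 3.91 ± 1.41, adjusted p = 0.0433). Ureaplasma, a relative of Mycoplasma, changed by 3.62 ± 1.27 (adjusted p = 0.0423). The calls of Odoribacter, Lactobacillus and Ureaplasma were lost in 10, 15 and 11 of 24 alternatives, library size alone among them for each.

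The 4 genera whose ratio was lower after re-separation were all higher in KO mice at weaning. Akkermansia, which degrades mucin, averaged 1.54 ± 2.35% in KO mice and 0.00212 ± 0.00474% in WT mice at weaning, had 0 reads in both genotypes after co-housing, and averaged 0.00993 ± 0.00706% in KO mice and 0.00136 ± 0.00304% in WT mice after re-separation (change -5.59 ± 2.04, adjusted p = 0.0433). Gastranaerophilales averaged 2.40 ± 1.69% in KO mice and 0.162 ± 0.209% in WT mice at weaning, against 1.30 ± 0.682% in KO mice and 3.15 ± 2.97% in WT mice after re-separation (change -4.09 ± 1.29, adjusted p = 0.0248). Blautia, an acetate-forming Lachnospiraceae genus, changed by -5.32 ± 1.75 (adjusted p = 0.0321), and unclassified Puniceicoccaceae by -5.18 ± 1.89 (adjusted p = 0.0433). At weaning Akkermansia, Blautia and unclassified Puniceicoccaceae each had reads in only 1 WT library, at 0.0106%, 0.0298% and 0.00794%. Their calls were lost in 11, 6 and 16 of 24 alternatives.

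**Figure D5:**
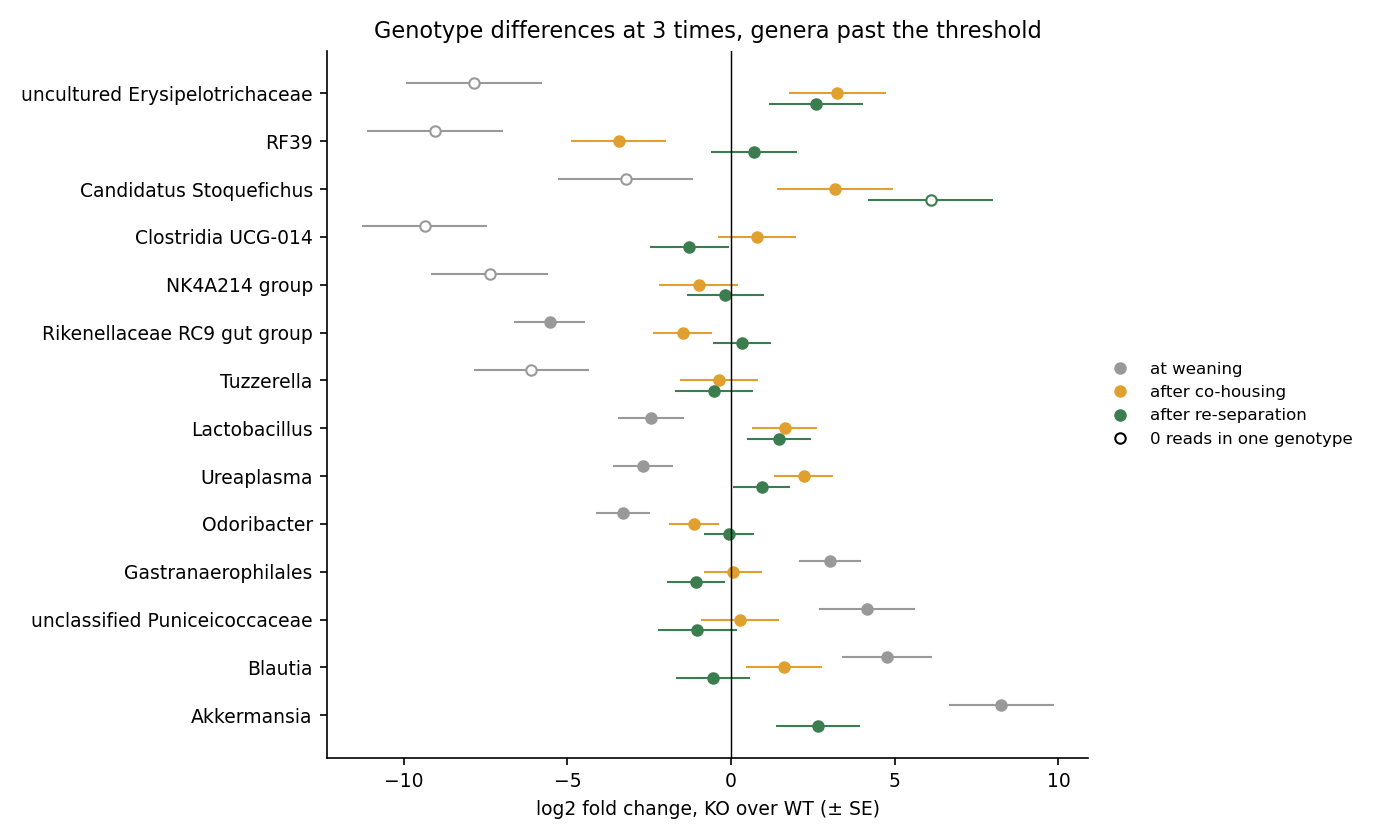
Log2 fold change of KO over WT (± SE) at weaning (top point), after co-housing (middle) and after re-separation (bottom) for the 14 genera whose genotype difference changed between weaning and re-separation; open points have 0 reads in 1 genotype, so their size depends on the model's prior count, and a time with 0 reads in both is left out. Points at weaning lie farthest from 0 for all genera but Candidatus Stoquefichus. The genera were chosen by their change from weaning, which by itself favours large values at weaning.

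Against co-housing, the genotype difference after re-separation differed for 0 of 76 genera (0% called), with 5 at an unadjusted p under 0.05 and 1 called by DESeq2, [Eubacterium] siraeum group. Without KO library 15 of the co-housing set, 1 was called, RF39. The number of genera that differed from weaning ranged from 6 to 16 when single libraries were left out, with 6 without KO library 24 or WT library 30, 7 without KO library 21 or WT library 26, and 9 without KO library 25, WT library 29 or WT library 7 of the weaning set. Of the 14, 5 kept their call in all 24 alternatives, namely Rikenellaceae RC9 gut group, uncultured Erysipelotrichaceae, RF39, Clostridia UCG-014 and NK4A214 group.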

How the data were processed

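Per the labels' protocols, stool DNA was amplified with V4 primers for 16S rRNA genes in 25 PCR cycles and read as paired ends on an Illumina MiSeq. The authors deposited raw counts, whole numbers of reads for each variant and library, without normalization. R 4.5.1 and limma stand in the submitters' processing notes with no role. Details of denoising, of the reference for taxon names and of any removal of low counts were not given in the sources used here. In the 10 libraries 2 counts equalled 1, 18 equalled 2 and 44 equalled 3; if low counts were removed before deposit, bounds against the floor of 3 counts would be too high.

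Variants were summed by genus and family name. Counts were tested with edgeR 4.0.16 (R 4.3.3; TMMwsp factors, glmQLFit with robust estimation, glmQLFTest; at least 10 reads in at least 3 libraries) and Benjamini-Hochberg adjustment at 0.05, with DESeq2 1.42.0 and limma-voom 3.58.1 as alternatives. Scripts were tested on simulated counts. Over 20 data sets per setting, 1200 variants were changed against 4360 unchanged, 300 genera against 1000 and 120 families against 460. These shares exceed those called in the data, so the rates found may be too high for these data. Diversity measures used exact two-sided permutation of libraries (scipy 1.17.1). For composition, genotype's share of variation is the sum of squares ratio. Its exact permutation p is the fraction of all splits whose share was at least the observed one. Named were the 10 leading families, 15 leading genera and 10 leading variants, every feature past the threshold, and variants in 5 of 5 against 0 of 5 libraries; members and lists were chosen with earlier results of these data known. No library repeated another: chi-square per degree of freedom within genotypes was 33.0 to 114. The files hold no sequences of the variants, so a row number, counted from 1, identifies each.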

Additional observations from a re-analysis of the deposited data

Results flagged for a closer look

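Of 82 sets of 5 libraries examined for a library far from the rest, 5 had one. The rule flags about 1 in 20 sets of independent, normally distributed values. Shares of reads need not follow that distribution and the sets share counts, so the rate for these data was not tested. Rikenellaceae had 3.46% of reads in WT library 26, against 6.94% to 8.13% in the other WT libraries. The Helicobacter variant in row 836 had 20.0% in KO library 24, against 6.45% to 10.1% in the other KO libraries. The Gastranaerophilales variant in row 878 had 6.62% in WT library 30, against 0.503% to 2.27% in the others. The NK4A136 group variant in row 1241 had 0.117% in WT library 29, against 0.0349% to 0.0579% in the others. Richness was 293 variants in KO library 25, against 205 to 228 in the other KO libraries.

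The 14 genera whose genotype difference differed between re-separation and weaning, by an interaction term in edgeR, had these changes in the log2 ratio of KO over WT, after re-separation minus at weaning. With reads in both genotypes at both times, the change was 5.86 for Rikenellaceae RC9 gut group, 3.91 for Lactobacillus, 3.62 for Ureaplasma, 3.23 for Odoribacter, -4.09 for Gastranaerophilales, -5.18 for unclassified Puniceicoccaceae, -5.32 for Blautia and -5.59 for Akkermansia. Unclassified Puniceicoccaceae, Blautia and Akkermansia had reads in only 1 WT library each at weaning, so their sizes are uncertain. Under the alternatives they ranged from -8.52 to -3.73, from -10.3 to -3.98 and from -9.32 to -3.02. For the genera with 0 reads in KO mice at weaning, fitted values depend on the model's prior count and are no measured size. They were 10.45 for uncultured Erysipelotrichaceae, 9.76 for RF39, 9.31 for Candidatus Stoquefichus, 8.09 for Clostridia UCG-014, 7.20 for NK4A214 group and 5.58 for Tuzzerella. The cage of each mouse is not among the labels, so the part of cage in these changes was not tested.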

How the results depend on the processing

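With 5 libraries a group, tests on simulated counts found mostly large changes, and the part of depth in this limit was not tested. Genotype's share of variation in composition was 0.266 with square roots, 0.245 with Jaccard and 0.245 with Aitchison distances. Each of these had an unadjusted exact permutation p under 0.05. The share was 0.171 to 0.250 when each library was left out. The richness difference ranged from -43.3 to -17.1 when single libraries were left out. Its unadjusted exact permutation p was under 0.05 only without KO library 25. Counts of called variants were 18 with DESeq2, 22 with limma-voom and 2 to 16 without single libraries, with 6 without the filter. Called genera numbered 6 with DESeq2, 2 with limma-voom, 5 without the filter and 0 to 6 without single libraries. Called families numbered 1 with DESeq2. Genera whose difference changed from weaning numbered 6 to 16 without single libraries. Against co-housing they numbered 1 with DESeq2, 1 without the filter and 0 to 1 without single libraries. The cause of these shifts was not tested. Of the 4 called variants, NK4A136 group row 1177 and ASF356 row 1061 kept their call in all 17 alternatives, row 1241 in 12 and Dubosiella row 1693 in 8. No reported direction of a called result reversed. DESeq2's size factors moved the median log2 fold change of variants by 0.20. No paired analysis was possible because the identity of the mouse is not among the labels.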
